A study of Homo sapiens with 8 samples.

Results

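The Krüppel-like factors are zinc finger transcription factors, and 10 of them (KLF2, KLF3, KLF4, KLF5, KLF6, KLF7, KLF9, KLF10, KLF11 and KLF13) were followed among the 19046 genes tested. They were taken by symbol through the RefSeq accession that the array gives for each probe. The arrays held RNA of A549, an established epithelial cell line from a human lung carcinoma, in a pair of dose series. In the EEDS series, cells received the vehicle or 1.25, 5 or 20 μg/mL EEDS, the ethanol extract of Descurainia sophia seeds. In the helveticoside series, cells received the vehicle or 3.75, 15 or 60 nM helveticoside, a cardiac glycoside of these seeds. The labels name no genetic change in any group. The sample labels give an exposure of 48 h, whereas the methods of the study give a shorter one for the cells of the arrays. Each group was 1 array with RNA pooled from triplicate cultures, so there was no replicate of a dose, and agent and series cannot be told apart.

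Krüppel-like factors bind GC-rich and CACCC-type sequences through tandem zinc fingers at their carboxyl end. KLF2, KLF4, KLF5, KLF6 and KLF7 act mainly as activators, KLF3 recruits the corepressor CtBP, and KLF9, KLF10, KLF11 and KLF13 recruit the corepressor SIN3A. Several are known as early response genes with short-lived transcripts, and in epithelia they take part in the control of proliferation, differentiation and cell cycle arrest.

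By RefSeq accession, 1 probe was named for each factor except KLF6, which has 2 probes. Probes of the array not named in this way were not assigned to any gene. Levels are log2 values of the background-corrected and quantile-normalized signal, and a ratio is the treated array minus the vehicle control of its own series. Levels were not compared between genes, because each probe has its own brightness. The median signal of an array was 182 to 278 over a local background of 27 to 34, and the scanner software called between 54.5% and 64.9% of the probes well above background. All 10 factors were well above background on all 8 arrays, except KLF4 on the helveticoside vehicle control. All 9 epithelial and A549 markers used (KRT7, KRT8, KRT18, KRT19, EPCAM, CDH1, AKR1C1, AKR1B10 and ALDH1A1) were well above background on all 8 arrays. The endothelial markers PECAM1 and VWF, the fibroblast markers COL1A2 and DCN and the T cell marker CD3E were not well above background on any array. Other markers of these cell types, the endothelial CDH5, the fibroblast COL1A1 and the blood cell markers CD14 and PTPRC, were well above background on all 8.

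The 250 bases before the start of KLF4, KLF6 and KLF9 are shown because, among the factors with such a sequence that were more than 2-fold higher at both top doses, they had the largest ratio (KLF4), the latest course over the doses (KLF6) and the earliest (KLF9). They come from RefSeq on GRCh38.p14 and are written 5′ to 3′ on the strand of the gene, which is the minus strand for all of them. Capitals mark GGGCGG, the core of a GC box, on either strand (CCGCCC where the other strand holds it).
KLF4, chr9:107489770-107490019: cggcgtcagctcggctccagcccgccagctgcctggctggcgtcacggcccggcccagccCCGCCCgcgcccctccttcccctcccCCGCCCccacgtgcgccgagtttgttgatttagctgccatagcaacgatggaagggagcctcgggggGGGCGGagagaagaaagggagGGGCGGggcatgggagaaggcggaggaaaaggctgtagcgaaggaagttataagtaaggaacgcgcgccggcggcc
KLF6, chr10:3785210-3785459: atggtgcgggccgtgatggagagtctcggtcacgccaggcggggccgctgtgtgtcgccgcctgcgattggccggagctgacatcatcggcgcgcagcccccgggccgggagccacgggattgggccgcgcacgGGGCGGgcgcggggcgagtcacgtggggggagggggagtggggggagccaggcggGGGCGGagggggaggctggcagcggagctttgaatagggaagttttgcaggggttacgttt
KLF9, chr9:70414658-70414907: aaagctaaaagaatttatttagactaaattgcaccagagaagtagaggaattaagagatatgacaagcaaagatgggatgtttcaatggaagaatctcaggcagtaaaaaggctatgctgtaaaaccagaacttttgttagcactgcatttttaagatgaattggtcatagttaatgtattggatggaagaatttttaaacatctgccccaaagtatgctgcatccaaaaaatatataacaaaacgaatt
The KLF4 stretch holds GGGCGG at 4 places and the KLF6 stretch at 2, whereas the KLF9 stretch holds none.

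RefSeq promoter windows, from 250 bases before to 50 bases after a start, were found for 8 of the 10 factors, with 13 windows in all. KLF3 and KLF10 had none in the table. GGGCGG was present in 8 of these 13 windows, against 45.0% of all 35116 windows. CACCC, the other sequence that the family is known to bind, was present in 7 of the 13 windows (of KLF5, KLF7, KLF11 and KLF13), against 59.9% of all windows, with both strands searched. Sites known from immediate early genes were rarer. TGACGTCA, the site of CREB and ATF factors, was found in 1.85% of all windows and among the factors for KLF11 alone, 176 bases before a start, where its last bases overlap a CACCC. The CArG box, the site of SRF, was found in 1.29% of all windows and among the factors for KLF7 alone, 62 bases before 1 of its starts. Both matches are shown in capitals within 30 bases.
KLF11, plus strand, chr2:10044034-10044063: atttccagccaTGACGTCAccccggtcctg
KLF7, minus strand, chr2:207167289-207167318: accacactaaCCATTTAAGGtcaagcaaac
A match describes the letters of the window only, and binding was not measured.

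At 20 μg/mL EEDS, 6 of the 10 factors (KLF2, KLF4, KLF6, KLF7, KLF9 and KLF10) exceeded their vehicle control more than 2-fold, against 13.3% of all genes tested. At 60 nM helveticoside the number was also 6 (KLF4, KLF6, KLF7, KLF9, KLF10 and KLF11), against 10.8% of all genes. None was more than 2-fold lower at either top dose, where 14.5% of all genes were lower with EEDS and 12.8% with helveticoside. The median log2 ratio of the 10 factors was 1.29 at 20 μg/mL EEDS and 1.13 at 60 nM helveticoside, while the median of all genes was 0.02 and -0.00. The shares of higher genes were 14.3% and 10.9% when only the 11498 genes with a clear signal on every array were counted. These are differences between single arrays of whole cultures, in which fewer cells of a kind and less RNA per cell cannot be told apart. The factors were chosen with earlier results of these data known, so their share is a description.

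The numbers were smaller at lower doses. At 1.25 μg/mL EEDS, KLF4 and KLF9 were more than 2-fold higher (2 of 10, against 4.22% of all genes), and KLF2 was more than 2-fold lower (1 of 10, against 3.66%). At 5 μg/mL EEDS, KLF4 and KLF9 were again the 2 above 2-fold, against 7.33%. With helveticoside, KLF4 alone passed 2-fold at 3.75 nM (1 of 10, against 3.38%), and KLF4 and KLF9 did so at 15 nM (2 of 10, against 7.08%). None was more than 2-fold lower at 5 μg/mL EEDS (8.47% of all genes), at 3.75 nM (4.31%) or at 15 nM (8.06%). The median log2 ratio of the factors was 0.33, 0.66 and 1.29 at the rising doses of EEDS and 0.23, 0.63 and 1.13 at those of helveticoside. Of the 10 factors, 9 had the same sign at both top doses, as did 76.5% of all genes, and KLF13 was the exception. The factors more than 2-fold higher at both top doses were KLF4, KLF6, KLF7, KLF9 and KLF10 (5 of 10, against 7.38%).

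**Figure D1:**
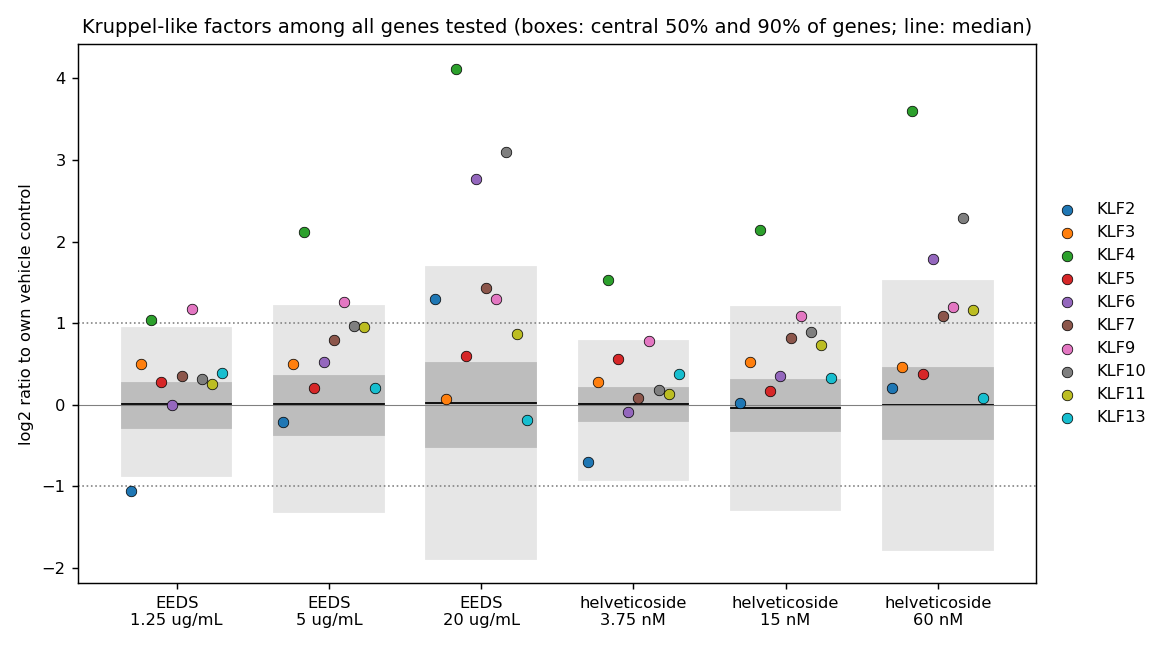
Log2 ratio of each factor to the vehicle control of its own series (vertical axis) for the 6 treated arrays (horizontal axis). Each point is 1 factor on 1 array, the grey boxes hold the central 50% and 90% of all 19046 genes, the black line is their median, and dotted lines mark 2-fold. KLF4 is the highest point on 5 of the 6 arrays, and KLF9 is the highest at 1.25 μg/mL EEDS. The KLF4 points of helveticoside are measured against a control that was not well above background.

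As each dose had 1 array, the only test was of the slope of the log2 level over the dose step (control, lowest, middle and top dose as 0, 1, 2 and 3). The slopes of both series were fitted together in limma, so that the scatter of arrays about their dose lines stood for the missing replicates. A course that departs from a straight line over the steps therefore counts as scatter and widens the intervals. At an adjusted p under 0.05, 3 factors rose with EEDS (KLF4, KLF7 and KLF10, against 7.27% of all genes) and 3 rose with helveticoside (KLF4, KLF7 and KLF11, against 5.48%). KLF4 and KLF7 rose with both agents (2 of 10, against 4.45%). None fell with EEDS, where 7.85% of all genes fell, or with helveticoside, where 5.8% fell. At an unadjusted p under 0.05, none of the factors fell either, 6 rose with EEDS and 5 rose with helveticoside. That threshold was passed in either direction by 33.4% and 29.8% of all genes. Without the EEDS vehicle control or without the 20 μg/mL array no factor was called for EEDS, and without the helveticoside vehicle control, the 15 nM array or the 60 nM array none was called for helveticoside. Without the EEDS vehicle control, the 1.25 μg/mL array or the 5 μg/mL array, 1 factor was called for helveticoside. With each of the 8 arrays left out in turn, KLF4 and KLF7 kept their call for EEDS in 6 of 8 fits, and KLF10 kept it in 1. For helveticoside KLF4 kept it in 5 of 8 fits, KLF7 in 1 and KLF11 in 0.

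**Figure D2:**
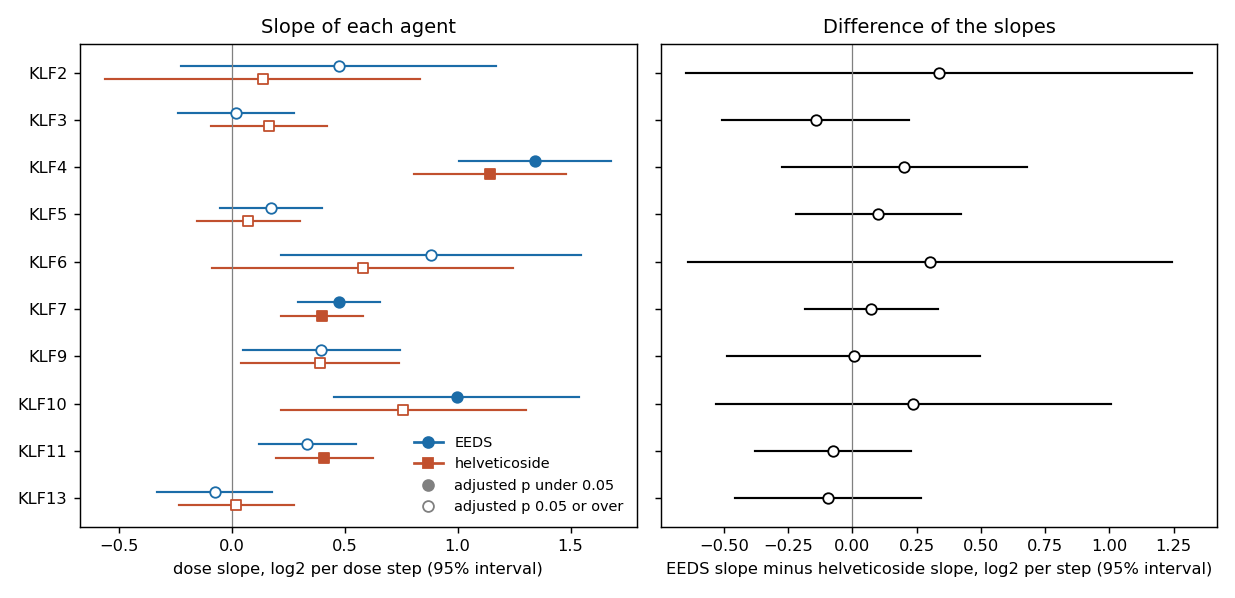
Left, dose slope of each factor in log2 units per dose step for EEDS (circles) and helveticoside (squares), with 95% intervals from the limma fit over 8 arrays. Filled symbols have an adjusted p under 0.05. Right, EEDS slope minus helveticoside slope with its 95% interval. All 10 intervals of the difference include 0.

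Among the activators, KLF4 had the largest ratios. KLF4 (chromosome 9, 107484852 to 107489769 on GRCh38.p14) encodes a factor of epithelial barrier differentiation and a known activator of CDKN1A. With EEDS its log2 level went from 5.99 in vehicle-treated cells to 7.03, 8.10 and 10.11 at the rising doses. With helveticoside it went from 5.85 in vehicle-treated cells, where it was not well above background, to 7.38, 7.99 and 9.46. Both controls lay below all 6 treated arrays, and each dose was higher than the one before it. KLF4 was 2.05-fold, 4.33-fold and 17.4-fold higher at the rising doses of EEDS, and its ratio at 20 μg/mL was at the 99.8th percentile of all genes. With helveticoside and the background correction used here it was at least 2.88-fold, 4.40-fold and 12.1-fold higher. For these values, the control was taken at the dimmest signal that the software still called well above background on that array, or at its own signal where that was brighter. They are bounds for this processing only, and other background corrections gave lower ratios at 60 nM. The slope was 1.34 per step (SE 0.13, adjusted p = 0.0132) for EEDS and 1.14 (SE 0.13, adjusted p = 0.0177) for helveticoside. The size of its ratio differed between background corrections. On the log2 scale it lay between 2.96 and 4.35 at 20 μg/mL EEDS and between 2.11 and 3.60 at 60 nM helveticoside over the alternatives. The highest value for helveticoside is the one given above, and the lowest came from the processed values of the authors.

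KLF2 (chromosome 19, 16324826 to 16328685), known for endothelial quiescence and closely related to KLF4, followed another course. Its log2 level was 10.38 on the EEDS vehicle control and 9.32, 10.16 and 11.67 at the rising doses of EEDS. It was 9.75 on the helveticoside vehicle control and 9.06, 9.78 and 9.97 at the rising doses of helveticoside. The lowest dose of either agent gave the lowest level of its series, and the 20 μg/mL EEDS array was the highest of all 8. The log2 ratios were -1.05, -0.21 and 1.30 for EEDS and -0.70, 0.02 and 0.21 for helveticoside. The KLF2 probe was printed as 10 spots, and these varied within an array with an SD of 0.030 to 0.058 on the log2 scale. The spots show the precision within 1 array and not between arrays. The vehicle controls of the series differed by -0.62 (helveticoside minus EEDS), the largest such difference among the factors. Against the control of the other series, KLF2 had a log2 ratio of 1.92 at 20 μg/mL EEDS and -0.41 at 60 nM helveticoside. Neither slope passed the test (0.47 per step with an SE of 0.28 and an adjusted p of 0.308 for EEDS, and an adjusted p of 0.858 for helveticoside).

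KLF6 (chromosome 10, 3775996 to 3785209), described as a tumour suppressor with several splice forms, lay above its control mainly at the top doses. Its log2 level was 11.22 on the EEDS vehicle control and 11.22, 11.74 and 13.98 at the rising doses. In the helveticoside series it was 11.57 on the control and 11.48, 11.92 and 13.35 at the rising doses. The lowest dose of either agent lay at or just below its own control, and both top doses lay above the other 6 arrays. KLF6 was 6.79-fold higher at 20 μg/mL EEDS and 3.44-fold higher at 60 nM helveticoside. Its slope was 0.88 per step (SE 0.27, adjusted p = 0.0816) for EEDS and 0.58 (SE 0.27, adjusted p = 0.220) for helveticoside, neither of which passed the test. A straight line over the dose itself, in place of the dose step, was an alternative. In that fit KLF6 passed the test for EEDS (adjusted p = 0.00670) and for helveticoside (adjusted p = 0.0249). Of 19 alternatives to the main fit, 6 called KLF6 for EEDS, and only 1, the fit over the dose itself, called it for helveticoside.

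A second KLF6 probe, for another RefSeq transcript of the gene, was not well above background on either vehicle control. It was at least 1.96-fold and 7.66-fold higher at 5 and 20 μg/mL EEDS, and at least 1.51-fold higher at 60 nM helveticoside. Both KLF6 probes were therefore higher at both top doses.

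KLF7 (chromosome 2, 207074137 to 207173851), best known from neuronal development, rose with both agents by smaller amounts. In log2 units, KLF7 was at 8.40 on the EEDS vehicle control and 8.75, 9.20 and 9.83 at the rising doses of EEDS. It was 8.43 on the helveticoside vehicle control and 8.52, 9.25 and 9.52 at the rising doses. Both controls lay below all treated arrays, and every dose was higher than the one before it. The steps were 0.35, 0.45 and 0.63 with EEDS and less even with helveticoside, at 0.09, 0.73 and 0.27. KLF7 was 2.70-fold higher at 20 μg/mL EEDS and 2.13-fold higher at 60 nM helveticoside. The slope was 0.47 per step (SE 0.07, adjusted p = 0.0195) for EEDS and 0.40 (SE 0.07, adjusted p = 0.0311) for helveticoside, with the smallest SE among the 10 factors.

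KLF5 (chromosome 13, 73054976 to 73077538), which promotes proliferation of epithelial cells and often acts opposite to KLF4, stayed within 2-fold of its control at all doses. Its log2 level was 11.01 on the EEDS vehicle control and 11.28, 11.21 and 11.61 at the rising doses, and 11.12 on the helveticoside vehicle control and 11.68, 11.29 and 11.50 at the rising doses. All 6 treated arrays were above both controls, but the doses had no order. The slope was 0.17 per step for EEDS (95% interval -0.05 to 0.40, adjusted p = 0.252) and 0.07 for helveticoside (-0.15 to 0.30, adjusted p = 0.714).

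**Figure D3:**
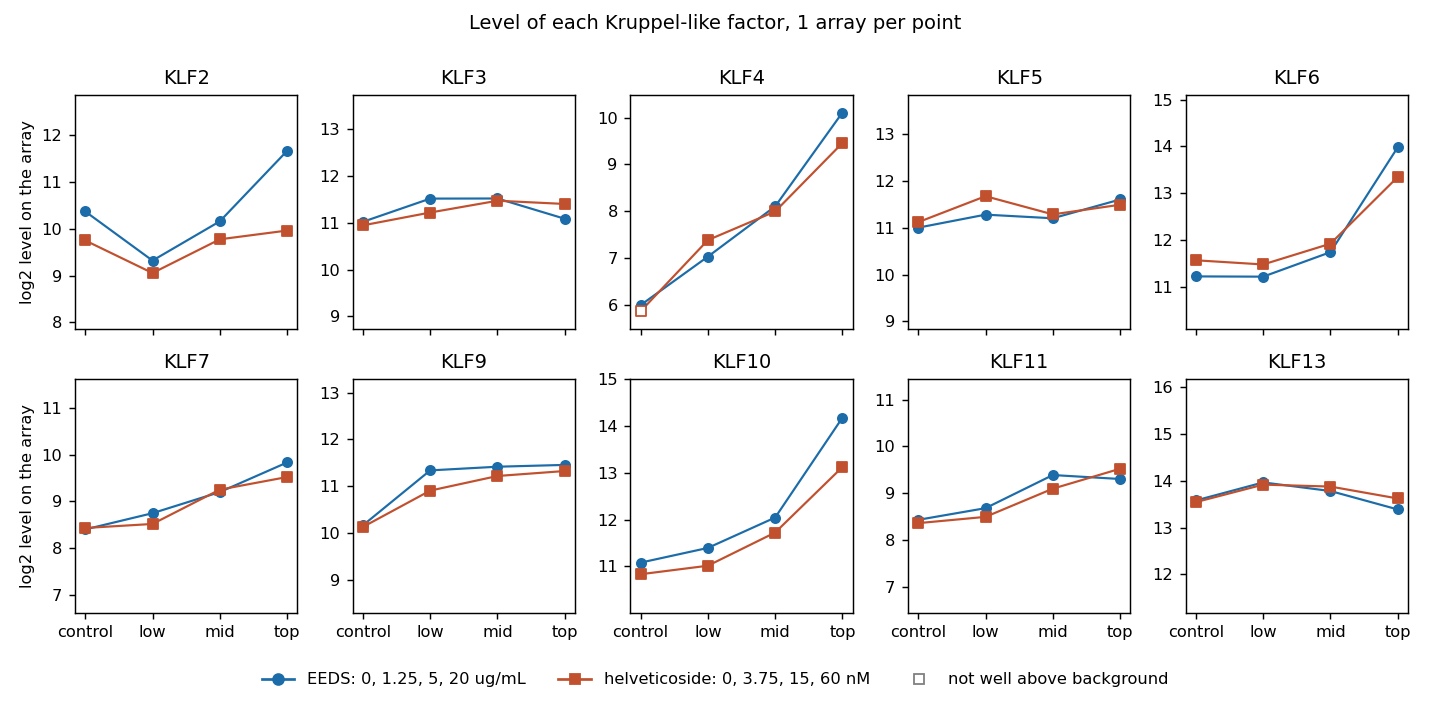
Log2 level of each factor (vertical axis, a span of 5 log2 units in every panel) at the vehicle control and the rising doses (horizontal axis) of EEDS (circles) and helveticoside (squares). Each point is 1 array, and the open symbol of KLF4 was not well above background. KLF4 and KLF7 climb at every step, KLF6 and KLF10 climb mostly at the top dose, KLF9 climbs mostly at the lowest dose, and KLF3, KLF5 and KLF13 stay nearly level.

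The factors that recruit SIN3A comprised the TGF-beta-inducible early genes KLF10 and KLF11 as well as KLF9 and KLF13. KLF10 (chromosome 8, 102648784 to 102655725) had a log2 level of 11.08 on the EEDS vehicle control and 11.39, 12.04 and 14.18 at the rising doses of EEDS. In the helveticoside series it had 10.83 on the control and 11.01, 11.72 and 13.12 at the rising doses. Every dose was higher than the one before it in both series, and both top doses were above the other 6 arrays. KLF10 was 8.59-fold higher at 20 μg/mL EEDS, at the 99.2nd percentile of all genes, and 4.91-fold higher at 60 nM helveticoside. It rose with EEDS with a slope of 0.996 per step (SE 0.22, adjusted p = 0.0388). The slope for helveticoside, 0.76 per step (SE 0.22, adjusted p = 0.0832), did not pass the test.

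KLF11 (chromosome 2, 10043550 to 10054836) is the closest relative of KLF10 and had smaller ratios. The level of KLF11 (log2) was 8.43 on the EEDS vehicle control and 8.68, 9.39 and 9.30 at the rising doses of EEDS. It was 8.36 on the helveticoside vehicle control and 8.49, 9.10 and 9.52 at the rising doses. The 20 μg/mL array lay just below the 5 μg/mL array, whereas with helveticoside each dose was higher than the one before. KLF11 was 2.24-fold higher at 60 nM helveticoside and rose with helveticoside with a slope of 0.41 per step (SE 0.09, adjusted p = 0.0417). For EEDS the slope was 0.33 per step (SE 0.09) and its adjusted p was 0.0568. The difference between these slopes was -0.08 (95% interval -0.38 to 0.23).

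KLF9 (chromosome 9, 70384604 to 70414657), a gene that glucocorticoids and thyroid hormone are known to induce, was already higher at the lowest doses. KLF9 had a log2 level of 10.16 on the EEDS vehicle control and 11.34, 11.42 and 11.46 at the rising doses. It was 10.13 on the helveticoside vehicle control and 10.91, 11.22 and 11.32 at the rising doses. The controls differed from each other by -0.03 (helveticoside minus EEDS) and lay below all 6 treated arrays. KLF9 was 2.26-fold, 2.39-fold and 2.45-fold higher at the rising doses of EEDS and 1.71-fold, 2.13-fold and 2.29-fold higher at those of helveticoside. The slopes of 0.40 for EEDS and 0.39 for helveticoside per step (SE 0.14 for both, adjusted p = 0.114 and 0.134) did not pass the test. The test takes a course that is not straight over the steps, such as this early one, as scatter.

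KLF13 (chromosome 15, 31326835 to 31435665), known as a regulator of CCL5 in T cells, stayed within 1.5-fold of its control. Its log2 level was 13.58 on the EEDS vehicle control and 13.96, 13.78 and 13.39 at the rising doses, and 13.54 on the helveticoside vehicle control and 13.92, 13.88 and 13.62 at the rising doses. In both series the lowest dose was the highest array and the level was lower at each further dose. At 20 μg/mL EEDS its log2 ratio was -0.19, which became 0.05 when the 75th percentile of each array set its scale. The slope was -0.08 per step for EEDS (95% interval -0.33 to 0.18) and 0.02 for helveticoside (-0.24 to 0.27).

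KLF3 (chromosome 4, 38664199 to 38701517), the CtBP-binding repressor, had a log2 level of 11.02 on the EEDS vehicle control and 11.52, 11.52 and 11.09 at the rising doses. It was 10.95 on the helveticoside vehicle control and 11.22, 11.47 and 11.40 at the rising doses. All treated arrays were above both controls by less than 2-fold, and the 20 μg/mL EEDS array came closest to its control. The slope was 0.02 per step for EEDS (95% interval -0.24 to 0.28) and 0.16 for helveticoside (-0.09 to 0.42).

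The factors above 2-fold at both top doses differed in where along the dose course their ratio arose. KLF9 had reached 90.9% of its top log2 ratio at 1.25 μg/mL EEDS and 65.0% at 3.75 nM helveticoside. KLF6 gained 81.2% of it in the last step of EEDS and 80.1% in the last step of helveticoside, and KLF10 gained 68.9% and 61.1%. KLF7 gained 44.2% and 24.7% in the last step. KLF4 had reached 25.2% at 1.25 μg/mL EEDS and 42.3% at 3.75 nM helveticoside, and it gained 48.7% and 40.7% in the last step. For comparison, 1066 genes were well above background on all arrays and more than 2-fold higher at both top doses. In these genes the median share reached at the lowest dose was 35.1% for EEDS (quartiles 19.5% and 51.1%) and 18.4% for helveticoside (4.46% and 31.5%). Their median share gained in the last step was 36.7% (19.4% and 52.5%) for EEDS and 43.3% (30.7% and 56.5%) for helveticoside. KLF9 thus lay above the upper quartile of the share reached early in both series, KLF4 did so with helveticoside, where its control was not well above background, and KLF6 and KLF10 lay above the upper quartile of the share gained last. Each share rests on 1 array per dose, and the difference between the courses was not tested. A level above that of the preceding dose at all 3 steps was seen for 4 factors with EEDS (KLF4, KLF7, KLF9 and KLF10), against 19.3% of all genes. With helveticoside it was seen for 5 factors (also KLF11), against 12.3%.

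**Figure D4:**
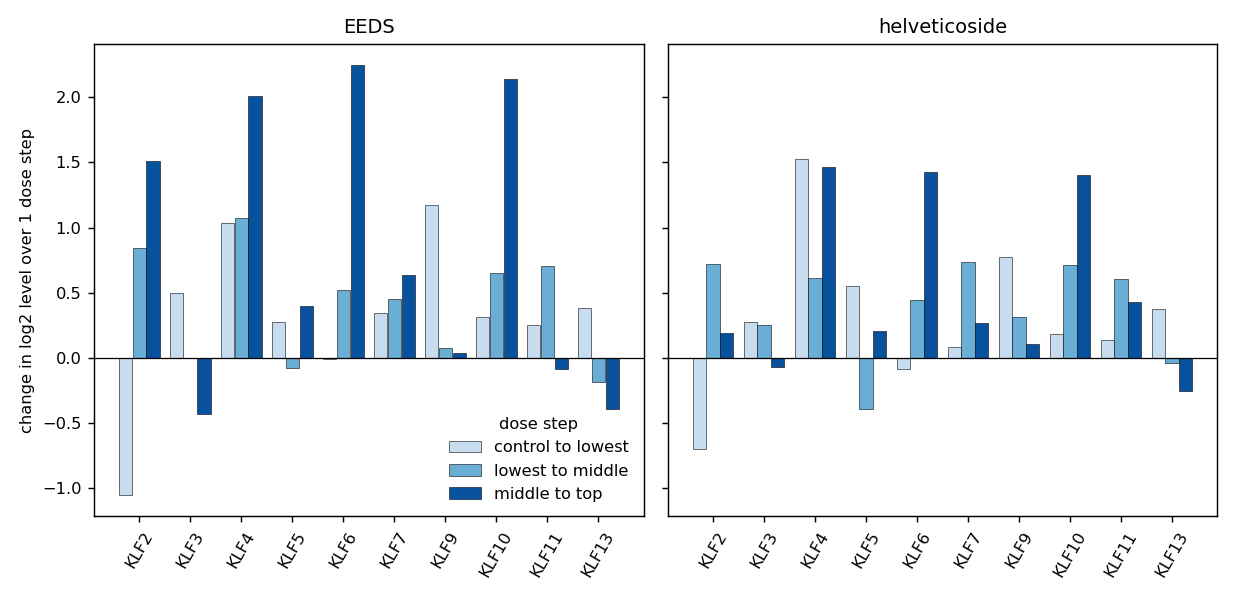
Change in log2 level over each dose step (vertical axis) for the 10 factors (horizontal axis) with EEDS (left) and helveticoside (right). Light bars are control to lowest dose, middle bars lowest to middle dose, and dark bars middle to top dose, each the difference of 1 pair of arrays. In both panels the dark bar is the tallest for KLF6 and KLF10, and the light bar is the tallest for KLF3, KLF9 and KLF13. With EEDS the dark bar is also the tallest for KLF2, KLF4, KLF5 and KLF7. With helveticoside the light bar is also the tallest for KLF4 and KLF5.

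The agents were compared through the difference of their slopes. No slope differed between EEDS and helveticoside in limma at an adjusted p under 0.05, for the 10 factors or for any of the 19046 genes (0.0%). At an unadjusted p under 0.05, 525 genes (2.76%) and none of the factors differed. The width of the intervals limits what could have been seen. It comes from the scatter about straight dose lines, in which a curved course counts too, and not from replicate arrays. The difference (EEDS minus helveticoside, per step) was 0.01 for KLF9 with a 95% interval of -0.49 to 0.50, 0.20 for KLF4 (-0.27 to 0.68), 0.24 for KLF10 (-0.53 to 1.01), 0.30 for KLF6 (-0.64 to 1.24) and 0.34 for KLF2 (-0.65 to 1.32). The doses of an extract in μg/mL and of a compound in nM are not matched, so a slope per dose step compares the series as they were designed.

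The vehicle controls give the only comparison of arrays without an agent. The 10 factors differed between them by -0.62 (KLF2) to 0.34 (KLF6) on the log2 scale, with a median of -0.05, and none was past 2-fold. Over all genes the SD of this difference was 0.65, and 10.4% of the genes were past 2-fold. The ratios of KLF4 and KLF9 at all doses, of KLF7, KLF10 and KLF11 at both middle and both top doses, of KLF6 at both top doses and of KLF2 at 20 μg/mL EEDS and at both lowest doses were larger in size than that SD.

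Of 8 further members of the family, 7 were on the array (KLF18 was not found by its symbol), and KLF8, KLF14 and KLF15 were not well above background on any array. The median log2 ratio of these 7 genes, with KLF8, KLF14 and KLF15 included, was -0.34 at 20 μg/mL EEDS and 0.02 at 60 nM helveticoside. KLF12, a CtBP-binding repressor like KLF3, was the only one more than 2-fold higher at both top doses. KLF12 had a log2 level of 9.58 on the EEDS vehicle control and 10.50, 10.91 and 11.02 at the rising doses, and 9.86 on the helveticoside vehicle control and 10.03, 10.78 and 11.02 at the rising doses. It rose with EEDS (adjusted p = 0.0350), and for helveticoside its adjusted p was 0.0526. KLF17 fell with both agents in the test, with a slope of -0.37 per step for EEDS (adjusted p = 0.0132) and -0.18 for helveticoside (adjusted p = 0.0482). Its log2 level went from 15.38 on the EEDS vehicle control to 14.25 at 20 μg/mL. In the helveticoside series it went from 16.51 on the vehicle control to 15.92 at 60 nM. Every helveticoside array thus lay above every EEDS array, so the series differed without an agent too. KLF1 and KLF16 did not pass the test with either agent. The lists that follow are read against all genes, of which 7.27% rose and 7.85% fell with EEDS and 5.48% rose and 5.8% fell with helveticoside. In the related SP family, 1 of 9 rose with EEDS and 2 of 9 with helveticoside, and none fell. The median log2 ratio of the SP genes was 0.36 at 20 μg/mL EEDS and 0.27 at 60 nM helveticoside, where that of all genes was 0.02 and -0.00. SP2, a ubiquitous GC-box factor, was 3.04-fold higher at 20 μg/mL EEDS and 3.10-fold higher at 60 nM helveticoside, with an adjusted p of 0.0308 and 0.0359. SP1, the founding member, passed the test for helveticoside only, with a slope of 0.30 per step (adjusted p = 0.0225), against 0.14 (adjusted p = 0.0885) for EEDS, and the difference between its slopes is among those that did not pass.

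Of 13 corepressors and coactivators of these factors, 2 rose and 1 fell with EEDS, and 1 rose and 1 fell with helveticoside, so that the count of 1 in 13 is near the share of all genes (7.27% rising and 7.85% falling with EEDS, 5.48% and 5.8% with helveticoside). Their median log2 ratio was 0.29 and 0.16 at the top doses. KAT2A, an acetyltransferase, fell with both agents, to 4.52-fold lower at 20 μg/mL EEDS (adjusted p = 0.0184) and 5.13-fold lower at 60 nM helveticoside (adjusted p = 0.0198). Its paralogue KAT2B rose with both, to 2.23-fold higher (adjusted p = 0.0390) and 2.16-fold higher (adjusted p = 0.0389). EP300, another acetyltransferase that binds several of the factors, rose with EEDS to 2.25-fold higher (adjusted p = 0.0431) and was 2.14-fold higher at 60 nM helveticoside (adjusted p = 0.0672). SIN3A, SIN3B, CTBP1 and CTBP2 did not pass the test with either agent.

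The ERK5 and MEF2 genes, known to drive KLF2 and KLF4 in endothelium, and SRF with its cofactors, known to drive immediate early genes, were listed as upstream genes. Of the 8 genes of the ERK5 and MEF2 list, 3 rose with EEDS (MAP3K2, MEF2A and MEF2D) and 2 rose with helveticoside (MAP3K2 and MEF2D), against 7.27% and 5.48% of all genes. The median log2 ratio of this list was -0.04 at 20 μg/mL EEDS and 0.28 at 60 nM helveticoside. MEF2D, a MADS-box factor, was 2.27-fold higher at 20 μg/mL EEDS (adjusted p = 0.0221) and 3.04-fold higher at 60 nM helveticoside (adjusted p = 0.0190). MAP3K2, a kinase upstream of ERK5, was 2.66-fold and 2.01-fold higher (adjusted p = 0.0216 and 0.0423). MAP2K5, the kinase that activates ERK5, was 4.32-fold lower at 20 μg/mL EEDS and 2.66-fold lower at 60 nM helveticoside, without passing the test (adjusted p = 0.0722 and 0.176). Of the 6 genes of the SRF list, 2 rose with EEDS (ELK3 and ELK4), 1 rose with helveticoside (ELK3) and MRTFB, an SRF coactivator, fell with both (adjusted p = 0.0420 and 0.0373). The list had a median log2 ratio of 1.48 and 1.49 at the top doses. The helveticoside median rests in part on the ratio of ELK1 to a control on which it was not well above background. ELK3, an ETS factor that binds beside SRF, was 4.44-fold higher at 20 μg/mL EEDS (adjusted p = 0.0132) and 5.26-fold higher at 60 nM helveticoside (adjusted p = 0.0165). SRF itself was 4.06-fold and 4.90-fold higher (adjusted p = 0.0648 and 0.0513). ELK1, another ETS partner of SRF, was 3.91-fold higher at 20 μg/mL EEDS and at least 2.59-fold higher at 60 nM helveticoside (adjusted p = 0.109 and 0.110), since it was not well above background on the helveticoside control.

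Of 9 ubiquitin ligases and related enzymes that act on the proteins of the family, 3 rose with EEDS (FBXW7, SMURF1 and SIAH1), 2 rose with helveticoside (SMURF1 and BTRC) and none fell, against 7.27% and 5.48% of all genes rising. Their median log2 ratio was 0.22 at 20 μg/mL EEDS and -0.17 at 60 nM helveticoside. At an unadjusted p under 0.05, 3 of the 9 fell with EEDS and 1 fell with helveticoside. SMURF1 was 3.57-fold higher at 20 μg/mL EEDS (adjusted p = 0.0144) and 4.04-fold higher at 60 nM helveticoside (adjusted p = 0.0165). FBXW7, the substrate adaptor of an SCF ligase, was 4.27-fold higher at 20 μg/mL EEDS (adjusted p = 0.0332) and 2.25-fold higher at 60 nM helveticoside (adjusted p = 0.123). These are transcript levels, and the proteins were not measured.

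Of the 6 genes of the glucocorticoid receptor list, which share hormone regulation with KLF9, none passed the test in limma. At an unadjusted p under 0.05, 1 rose with EEDS, 2 rose with helveticoside and none fell. The median log2 ratio of the list was 1.02 and 0.50 at the top doses. The signs were mixed. FKBP5 and ZBTB16 had negative slopes for EEDS and helveticoside (-0.09 and -0.45 for FKBP5, -0.12 and -0.19 for ZBTB16). NR3C1 and TSC22D1 had positive slopes for both agents. PER1, a circadian clock gene, had a log2 level of 8.40 on the EEDS vehicle control and 10.74, 10.10 and 13.30 at the rising doses. In the helveticoside series PER1 had 7.55 on the control and 9.81, 9.30 and 10.90 at the rising doses. PER1 was more than 2-fold higher at all doses of both agents, but its middle dose was below its lowest dose in both series (adjusted p = 0.0608 and 0.161). TSC22D3, a glucocorticoid-induced leucine zipper gene, had log2 ratios of 0.59, 1.84 and 1.64 for EEDS and -1.11, 1.42 and 2.02 for helveticoside (adjusted p = 0.236 and 0.139).

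Of 18 genes reported as targets of Krüppel-like factors, 8 were more than 2-fold higher at 20 μg/mL EEDS and 9 at 60 nM helveticoside, and 1 was more than 2-fold lower at each. Of all genes, 13.3% and 10.8% were more than 2-fold higher and 14.5% and 12.8% more than 2-fold lower. In the test 7 rose with EEDS and 6 rose with helveticoside, against 7.27% and 5.48% of all genes, and none fell, also at an unadjusted p under 0.05. The median log2 ratio of the 18 genes was 0.80 at 20 μg/mL EEDS and 0.91 at 60 nM helveticoside. CDKN1A, the cell cycle inhibitor p21 and a target of KLF4 and KLF6, had log2 ratios of 1.23, 2.65 and 3.23 for EEDS and -0.11, 1.69 and 2.52 for helveticoside (adjusted p = 0.0201 and 0.0329). CDKN1C, the related inhibitor p57, was 1.54-fold, 2.21-fold and 2.83-fold higher at the rising doses of EEDS and 1.66-fold, 2.16-fold and 3.12-fold higher at those of helveticoside (adjusted p = 0.0140 and 0.0165). ODC1, a polyamine synthesis enzyme that KLF4 is known to repress, also rose, to 3.49-fold higher at 20 μg/mL EEDS (adjusted p = 0.0230) and 3.77-fold higher at 60 nM helveticoside (adjusted p = 0.0279). TXNIP, an inhibitor of thioredoxin, rose to 10.1-fold higher at 20 μg/mL EEDS (adjusted p = 0.0481) and to at least 11.2-fold higher at 60 nM helveticoside (adjusted p = 0.0231), where its control was not well above background. BIRC5, the apoptosis inhibitor survivin that KLF4 is known to repress, rose with EEDS to 1.88-fold higher at 20 μg/mL (adjusted p = 0.0458) and was 1.61-fold higher at 60 nM helveticoside (adjusted p = 0.0943). Reported targets have many other regulators, and the list is a description.

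Some markers of the cell line moved over the same doses. Of the 9 epithelial and A549 markers, 4 fell with EEDS in the test (KRT8, KRT18, KRT19 and CDH1), 3 fell with helveticoside (KRT18, KRT19 and CDH1) and none rose, against 7.85% and 5.8% of all genes falling. Their median log2 ratio was -0.78 and -0.77 at the top doses. CDH1, the epithelial cadherin, had a log2 ratio of -2.70 at 20 μg/mL EEDS and -2.71 at 60 nM helveticoside. The summed linear level of the 9 markers was 1563200 on the EEDS vehicle control and 1254720 to 1538846 at the doses, and 1475166 on the helveticoside vehicle control and 1046969 to 1456680 at the doses. The 3 blood cell markers summed to 2966 on the EEDS vehicle control and 773 to 3383 at the doses, and to 2680 and 713 to 3645 in the helveticoside series. The fibroblast marker COL3A1 was well above background on 1 array. Their part in the levels of the Krüppel-like factors was not tested.

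The genes whose 6 log2 ratios lay closest to those of a factor, by Euclidean distance over the 11498 genes with a clear signal on every array, were found for KLF6, KLF7, KLF9 and KLF10. They were RIMKLB (distance 0.28) and KCTD11 (0.37) for KLF6, NKIRAS1 (0.15) and PRB4 (0.21) for KLF7, MNT (0.39) and CASD1 (0.40) for KLF9, and ARID3B (0.31) and ELL (0.33) for KLF10. RIMKLB, for example, had log2 ratios of 0.20, 0.56 and 2.71 for EEDS and -0.23, 0.33 and 1.70 for helveticoside, which follow the late course of KLF6. MNT, a MAX-binding repressor, had 1.23, 1.27 and 1.49 for EEDS and 0.94, 1.26 and 1.43 for helveticoside, which follow the early course of KLF9. ARID3B, a DNA-binding factor, had 0.33, 1.25 and 3.15 for EEDS and 0.22, 0.96 and 2.37 for helveticoside. Each neighbour was the nearest of many genes over only 6 ratios, so a small distance is a description and carries no test.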

How the data were processed

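For each of the 8 one-colour arrays, the authors deposited intensity values per spot as their scanner software wrote them, among which is a processed signal with the local background already taken off. They also deposited a table of their own normalized intensity values, used here as an alternative only. The files carry no slide or scan information. Outlier and control spots were dropped, and spots of a probe were averaged. The 22 probes without a usable spot on at least 1 array were left out. All other probes of the arrays were quantile-normalized together and then converted to log2. The study also used quantile normalization, but only on elements above 1.4 times the local background and with duplicate spots averaged as ratios afterwards, so inputs and order differ here.

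Of 34105 probes, 24812 were named through their RefSeq accession, and a gene with several probes took the brightest on average. A gene was tested where its signal reached 1.4 times the local background on at least 1 array of each series. Dimmer values were raised to the lowest detected signal of their array. Levels of single doses were compared without a test. Dose slopes came from limma 3.58.1 (R 4.3.3 with statmod 1.5.0), in which each series had its own intercept and slope, with 4 residual degrees of freedom, trend and robust estimation, and Benjamini-Hochberg adjustment over 19046 genes at a threshold of 0.05. Arrays carry no counts, and their number limits the precision. On simulated data with 200 changed genes, the EEDS slope test called 90 genes, 88 of them changed. It found 63% of slopes of 1 and 25% of slopes of 0.5 per step in these data. On the arrays the same test called more genes for EEDS, 1384 rising and 1495 falling. The share of slopes found with that many genes called was not tested. Tables were made with Python 3.11.15, numpy 2.4.6 and pandas 2.3.3.

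The 10 factors, the gene lists and the markers were chosen with earlier results of these data known. Named from each list were up to 4 genes past 2-fold at both top doses, and for the likeness search the 2 nearest genes of each factor that was well above background on all 8 arrays and past 2-fold at both top doses. Of the other genes named, KLF1, KLF16, KLF17, SP1, MEF2A, ELK4, SIAH1, BTRC, BIRC5, SIN3A, SIN3B, CTBP1, CTBP2, FKBP5, ZBTB16, NR3C1 and TSC22D1 were chosen after their values were seen. The alternatives were other background corrections, scalings, filters, probe rules, fold thresholds, controls, variance models and predictors, and each array left out in turn. Probe sequences and proteins were not used here. Some marker genes are not reported here.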

Additional observations from a re-analysis of the deposited data

How the results depend on the processing

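The counts at both top doses stayed within 1.5 times under all alternatives run except a 3-fold threshold, and those at the lower doses and of the slope test varied more. The number of factors more than 2-fold higher at 1.25 μg/mL EEDS (2) was 1 with scaling to the 75th percentile, with the signal as scanned, with normexp, with the authors' processed values and with genes well above background on all 8 arrays, and 0 at 3-fold. At 5 μg/mL (2) it was 1 with the latter filter, 4 against the control of the other series, 5 at 1.5-fold and 1 at 3-fold. At 3.75 nM helveticoside (1) it was 0 with the signal as scanned, with normexp, with the authors' values, with that filter and at 3-fold, and 2 at 1.5-fold. At 15 nM (2) it was 0 with the authors' values, 1 with that filter, 5 at 1.5-fold and 1 at 3-fold. At both top doses (6 each) it was 3 at 3-fold. That filter drops KLF4 by construction. The number called by the EEDS slope (3) was 5 with scaling to the 75th percentile, with the signal as scanned, with normexp and with the authors' values, 0 with only the 4 arrays of the series, and 0 to 3 with an array left out. For helveticoside (3) it was 0 with the 4 arrays of the series and 0 to 2 with an array left out. Fits on fewer arrays have fewer residual degrees of freedom; the cause of the other shifts was not tested. Of the other values of single factors, 667 kept direction and side of the threshold, 43 fell below it and 20 passed it, 5 moved and none that was called turned its direction. With scaling to the 75th percentile, the median of all genes lay between -0.36 and 0.14 (log2) at the 6 doses. No paired analysis was possible because each group held 1 array. Dim signal limits KLF4 most, since its helveticoside control was not well above background.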
